A study of Mus musculus with 28 samples.

Results

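The mouse mitochondrial genome is a small circular DNA that encodes 37 genes, and all of them are listed in each of the 3 deposited tables. They are the 13 messenger RNAs (mRNAs) of proteins of the respiratory chain and ATP synthase, the 2 ribosomal RNAs (rRNAs) and the 22 transfer RNAs (tRNAs). The members are every gene that the tables place on chromosome MT, out of 54163 genes in the liver table, 54189 in the muscle table and 54501 in the 24 h table. RNA was sequenced from liver and from muscle of male Lepob/Lepob C57BL/6J mice, which lack functional leptin and become obese. All mice, controls included, carried that genotype and had eaten the AMLN diet, which is rich in fat, fructose and cholesterol, from 4 weeks of age for 20 weeks, so that no lean or chow-fed animal enters any comparison. Treated mice received a daily injection into the abdomen of aspirin (acetylsalicylate, 3.0 mg/kg) together with trimetazidine (5.0 mg/kg), and vehicle mice received the solvent alone. At 40 d each tissue has 6 libraries from treated mice (numbered 4_5 and 5_1 to 5_5) and 6 from vehicle mice (2_1, 2_3, 2_4, 2_5, 3_2 and 6_1). At 24 h each tissue has 1 treated and 1 vehicle library. The labels give these as 24 h after an injection of both drugs or of vehicle, and the others as treatment for 40 d. The first digit of the mouse number never occurs in both groups, so whatever goes with it cannot be told apart from the treatment.

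Mitochondrial DNA is transcribed from both strands into long precursors by the RNA polymerase Polrmt with the factors Tfam and Tfb2m. The precursors are cut at the tRNAs that lie between most of the mRNAs and rRNAs, and the freed RNAs then differ in level mainly through their stability, for which the complex of Lrpprc and Slirp is a known factor. The proteins made from these mRNAs sit in complexes I, III, IV and V beside many subunits from nuclear genes. Trimetazidine is known as an inhibitor of the last step of mitochondrial fatty acid oxidation, and aspirin as an inhibitor of cyclooxygenases.

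The libraries held between 16.1 and 19.9 M reads on genes (M for 1e6). Liver markers were present in the livers (6 of 6 hepatocyte genes) and fibre markers in the muscles (6 of 6). In the livers the 6 skeletal fibre genes summed to 0 to 4.24 FPKM in treated and 0.0352 to 0.181 FPKM in vehicle mice. In the muscles the 6 hepatocyte genes summed to 2.77 to 30.2 FPKM in treated and 2.44 to 163.2 FPKM in vehicle mice. FPKM scales the sequenced fragments of a gene to its length and to a size of the library, so levels of different genes are compared per length. The library size behind these values differed from the reads on genes, so FPKM and shares of reads can point in different directions. The 3 tables were scaled separately, and levels are compared between groups only within a table.

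Part of the mitochondrial genome also exists as a near-identical stretch on chromosome 1, where 7 annotated pseudogenes lie in the same order as their mitochondrial counterparts. They span chr1:24611535-24616197 on the minus strand and match chrMT:6381-11042 (build GRCm38). Gm28661 matched mt-Co2 over 681 bases, Gm10925 matched mt-Atp6 over 678 bases, Gm28437 matched mt-Co3 over 783 bases and Gm10222 matched mt-Nd4l over 294 bases, each at 100% identity. Gm28438 differed from mt-Nd3 at 1 of 345 bases. Gm28439 matched the first 876 bases of mt-Nd4, 63.6% of that gene, at 100% identity, and Gm29216 matched the last 492 bases of mt-Co1, 31.8% of that gene, with 6 mismatches. No annotated copy of mt-Atp8 was found, but mt-Atp8 lies between mt-Co2 and mt-Atp6 and overlaps the start of mt-Atp6. Gm28661 and Gm10925 are 233 bases apart, as are the parts of mt-Co2 and mt-Atp6 that they match. Altogether 6 of the 13 mRNA genes lie wholly inside this stretch, with 5 tRNA genes. How reads that fit both places were counted was not given in the sources used here, and levels of these 6 mRNAs are uncertain. The same holds for mt-Nd4 and mt-Co1, which are copied in part.

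The mt-Nd4l gene (chrMT:9877-10173, plus strand) and its copy Gm10222 (chr1:24612407-24612700, minus strand) are shown because a read from inside the gene cannot be assigned by its sequence. The capitals mark the 3 bases, the stop codon, that lie past the end of the annotated copy. The sequences are those of the GENCODE M21 transcripts on GRCm38, written 5′ to 3′ on the strand of the gene.
mt-Nd4l: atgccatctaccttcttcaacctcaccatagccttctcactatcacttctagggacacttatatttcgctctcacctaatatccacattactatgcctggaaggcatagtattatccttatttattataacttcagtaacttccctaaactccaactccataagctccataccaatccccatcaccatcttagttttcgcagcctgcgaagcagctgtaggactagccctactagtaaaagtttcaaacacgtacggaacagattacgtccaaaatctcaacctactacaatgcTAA
Gm10222: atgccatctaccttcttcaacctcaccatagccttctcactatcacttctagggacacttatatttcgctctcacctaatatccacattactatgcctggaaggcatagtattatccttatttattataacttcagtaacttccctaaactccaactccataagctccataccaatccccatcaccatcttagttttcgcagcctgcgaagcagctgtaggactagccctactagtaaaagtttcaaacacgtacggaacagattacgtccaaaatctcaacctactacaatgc

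The mt-Atp8 gene (chrMT:7766-7969, plus strand) is shown because it is the member whose groups were most clearly apart in muscle, and because it is short and shares sequence with another gene. The capitals mark the 43 bases at its 3′ end that are also the start of mt-Atp6, so a fragment there belongs to both genes.
mt-Atp8: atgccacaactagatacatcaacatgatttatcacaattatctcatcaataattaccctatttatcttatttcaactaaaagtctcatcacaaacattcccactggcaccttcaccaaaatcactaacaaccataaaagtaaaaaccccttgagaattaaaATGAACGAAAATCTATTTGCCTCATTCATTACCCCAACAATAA

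The 3 tRNA genes with the highest listed levels in both tissues were mt-Tp (proline, chrMT:15356-15422), mt-Tc (cysteine, chrMT:5192-5257) and mt-Tn (asparagine, chrMT:5089-5159). All of them are read from the minus strand, opposite to most of the mitochondrial genes. They are shown because each is very short, and because, with a kit that does not mark strand, their reads cannot be told apart from RNA of the opposite strand.
mt-Tp: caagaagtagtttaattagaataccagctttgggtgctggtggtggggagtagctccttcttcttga
mt-Tc: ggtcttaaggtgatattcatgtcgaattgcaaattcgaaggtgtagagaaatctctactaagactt
mt-Tn: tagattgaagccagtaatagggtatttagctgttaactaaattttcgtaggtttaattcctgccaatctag

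The listed levels of the mRNAs fell into 2 separate ranges that followed the copied stretch. At 40 d, gene means over the 12 livers were 1871 to 10860 FPKM for the 7 mRNA genes that are not wholly inside it, and 2.61 to 143.5 FPKM for the 6 that are. In muscle the ranges were 3138 to 21320 FPKM and 8.89 to 328.4 FPKM. The first 7 are called outside the stretch below, though mt-Nd4 and mt-Co1 lie partly in it. Levels of mt-Nd4 and mt-Co1 beside the others are therefore uncertain. The order among the first 7 was the same in both tissues: mt-Co1 was highest, followed by mt-Cytb, mt-Nd1, mt-Nd2, mt-Nd4, mt-Nd6 and mt-Nd5. The ranges over libraries of neighbours in this order overlapped in both tissues, except that mt-Nd2 lay wholly above mt-Nd4 in liver. Within every single library, mt-Co1 was above mt-Cytb, mt-Nd1 above mt-Nd2 and mt-Nd2 above mt-Nd4. The other neighbouring pairs did not keep the order in every library. Inside the stretch mt-Atp8 had the lowest mean in both tissues. The highest mean in liver was that of mt-Co2, with 2 treated livers of 389.3 and 490.0 FPKM in it, while in muscle mt-Co2 (328.4 FPKM), mt-Atp6 (328.3 FPKM) and mt-Co3 (305.3 FPKM) had similar means with overlapping ranges. mt-Co1 and mt-Co2 encode subunits of the same enzyme, cytochrome c oxidase, yet mt-Co1 was listed at 21.4 to 169.6 times the level of mt-Co2 across the livers and 41.1 to 120.6 times across the muscles. The 7 copies themselves were listed at a sum of 167.2 to 210.6 FPKM in treated and 212.9 to 354.2 FPKM in vehicle livers. These sums did not overlap, and 0.728% of single genes tested were likewise lower in every treated than in every vehicle liver. In muscle the copies summed to 438 to 2091 FPKM in treated and 512 to 2419.5 FPKM in vehicle mice, and the groups overlapped.

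The rRNAs were listed far below the 7 abundant mRNAs. mt-Rnr1, the RNA of the small mitochondrial ribosomal subunit, averaged 328.2 FPKM over the 12 livers and 458.7 FPKM over the 12 muscles, and mt-Rnr2, that of the large subunit, 289.3 and 452.1 FPKM. mt-Co1 stood 21.2 to 45.9 times above mt-Rnr1 across the livers and 14.3 to 77.0 times across the muscles. Whether ribosomal RNA was removed or polyadenylated RNA selected was not given in the sources used here. Of the 22 tRNA genes, 10 had a mean of at least 10 FPKM in liver and 12 in muscle, and 4 were listed at 0 in all 12 livers and 2 in all 12 muscles. The tRNA genes above 100 FPKM were mt-Tp, mt-Tc, mt-Tn and mt-Te in liver and those and mt-Ty in muscle, all of them minus-strand genes. Without strand marked, reads at any of them cannot be told apart from RNA of the opposite strand. Of the lower ones, mt-Tl2 and mt-Tl1 (both leucine) averaged 59.1 and 21.9 FPKM over the livers and 69.7 and 60.5 FPKM over the muscles, and mt-Ts2 (serine) 18.9 and 27.6 FPKM. mt-Th (histidine) averaged 17.3 FPKM over the livers and 21.1 FPKM over the muscles, mt-Tw (tryptophan) 16.7 and 18.7 FPKM, and mt-Tg (glycine) 14.2 FPKM over the muscles. mt-Tp averaged 1143 FPKM over the livers and 939.1 FPKM over the muscles.

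**Figure D1:**
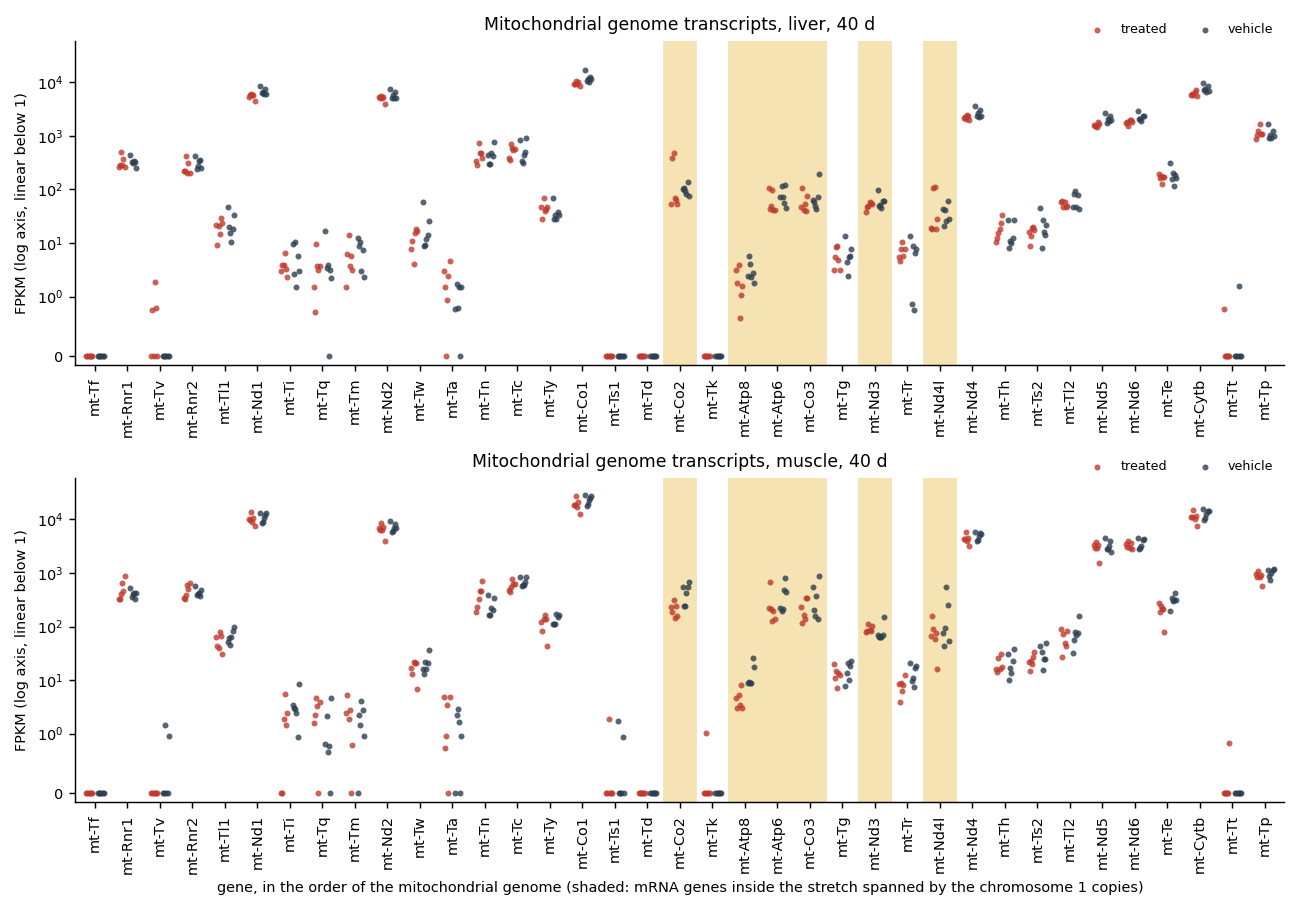
Listed level of all 37 mitochondrial genes in FPKM (log axis, linear below 1) in each of the 12 livers and 12 muscles at 40 d, in genome order, with treated mice left of vehicle mice for each gene. The 6 shaded mRNA genes, inside the stretch spanned by the chromosome 1 copies, have means of at most 143.5 FPKM in liver and 328.4 FPKM in muscle, while the other 7 mRNA genes have means of at least 1871 and 3138 FPKM.

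After 40 d, mitochondrial genes took 3.74% to 4.41% of the reads in treated livers (median 4.15%), against 4.37% to 6.54% in vehicle livers (median 4.78%). The share in treated mouse 5_2 was above that in vehicle mouse 2_3, and the other 5 treated livers lay below every vehicle liver. The comparison of liver asked what the drug combination did to each transcript. No mitochondrial gene passed the threshold: limma's moderated test with Benjamini-Hochberg adjustment called 0 of 31 tested members, beside 28 of 10995 genes over the table (0.255%), and limma voom on recovered reads also called 0 members. At an unadjusted p under 0.05 there were 5 members, all lower in treated livers, where 7.35% of all genes met that rule, and voom gave 6 members in either direction. That count was 2 to 7 with 1 library left out, and it was 2 without treated mouse 5_5 and without vehicle mouse 2_4 or 3_2. Log2 changes were negative for 23 of the 31 members with a median of −0.23, beside 51.0% negative and a median of −0.0033 over all genes tested. Without vehicle mouse 2_1, 17 of the 31 were negative with a median of −0.08. Every log2 change is the treated minus the vehicle mean of log2(FPKM + 1), which understates changes of low genes.

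Complex I, the first enzyme of the respiratory chain, takes 7 of its core subunits from mitochondrial mRNAs. mt-Nd5, a proton-pumping subunit, was listed at 1465 to 1817 FPKM (median 1557) in treated livers, against 1725 to 2725 FPKM (median 2060.2) in vehicle livers (log2 change −0.42, SE 0.12, adjusted p = 0.178). Of the 6 treated livers, 5 lay below every vehicle liver. mt-Nd1 had 4441 to 5971 FPKM (median 5770.3) in treated and 6056 to 8528 FPKM (median 6424) in vehicle livers (log2 change −0.30, SE 0.13, adjusted p = 0.352). It was the only member whose treated livers all lay below every vehicle liver, as did 0.728% of the genes tested. mt-Nd6, the mRNA gene on the minus strand, had 1530.0 to 2008 FPKM (median 1798) in treated and 1924 to 2950.4 FPKM (median 2196) in vehicle livers (log2 change −0.33, SE 0.12, adjusted p = 0.284). mt-Nd5 and mt-Nd6 overlap by 14 bases on opposite strands. With a kit that does not mark strand, reads at mt-Nd6 cannot be told apart from RNA of the opposite strand. The listed mt-Nd6 values may therefore hold RNA of both strands. mt-Nd4 averaged 2219 ± 173 FPKM in treated and 2715 ± 495 FPKM in vehicle livers (log2 change −0.28, SE 0.13, adjusted p = 0.38). mt-Nd2 averaged 5001 ± 543 FPKM in treated and 5885 ± 1037 FPKM in vehicle livers (log2 change −0.23, SE 0.14, adjusted p = 0.525; SD, n = 6 each, limma). The groups of mt-Nd4, mt-Nd6 and mt-Nd2 overlapped, though all 6 treated livers lay below the vehicle median for each of these 5 complex I genes.

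Cytochrome b, from mt-Cytb, is the mitochondrially encoded subunit of complex III, and mt-Co1 encodes the subunit of complex IV that reduces oxygen. mt-Co1 was listed at 8660.1 to 10466 FPKM (median 9286) in treated livers, against 10022 to 16729 FPKM (median 11450.2) in vehicle livers (log2 change −0.33, SE 0.14, adjusted p = 0.348). mt-Cytb was listed at 5630.0 to 7154 FPKM (median 5912) in treated livers, against 6529 to 9934 FPKM (median 7364) in vehicle livers (log2 change −0.32, SE 0.14, adjusted p = 0.337). For both genes 4 of the 6 treated livers lay below every vehicle liver, and the rest overlapped with the lower vehicle livers. The 7 mRNAs outside the stretch thus ranged from −0.42 to −0.23 on the log2 scale, all below 0 and none past the threshold. Vehicle mouse 2_1 had the highest value of all 12 livers for each of these 7 genes. Without it the 7 changes ranged from −0.35 to −0.15.

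**Figure D2:**
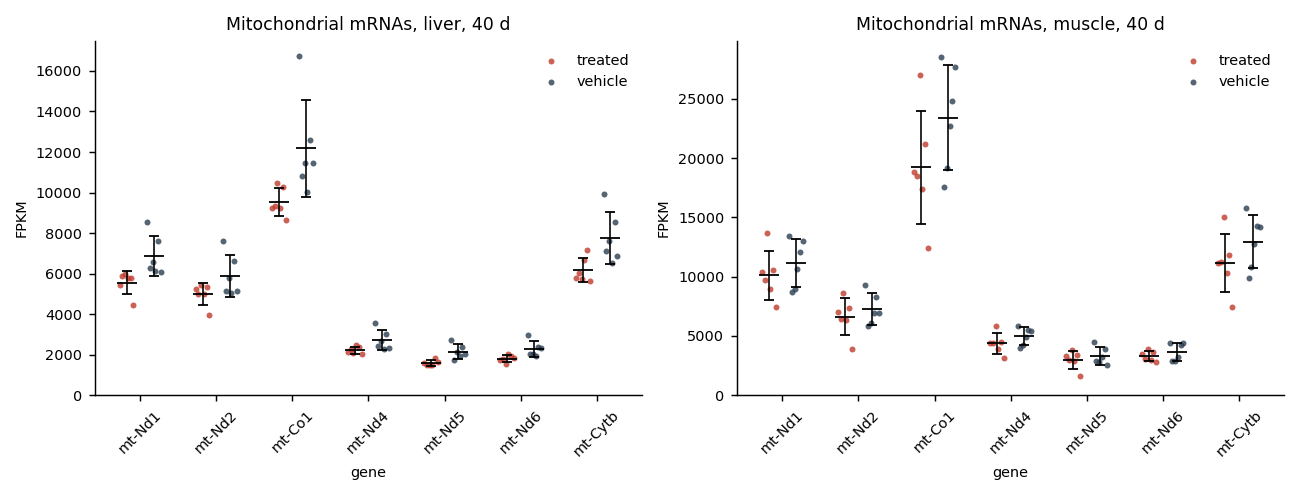
Level in FPKM of the 7 mitochondrial mRNAs that are not wholly inside the copied stretch, for each of 6 treated (red, left) and 6 vehicle (dark, right) mice in liver and in muscle at 40 d, with mean and SD in black. In liver the highest vehicle point of each gene is mouse 2_1, and mt-Nd1 is the gene whose groups do not overlap, at up to 5971 FPKM in treated and from 6056 FPKM in vehicle livers.

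Of the 6 mRNAs inside the copied stretch, 5 had SEs of the log2 change of 0.27 to 0.54 in liver and mt-Nd3 had 0.16, beside 0.12 to 0.14 for the 7 outside it. mt-Co2, the subunit of complex IV that takes electrons from cytochrome c, was listed at 389.3 FPKM in treated mouse 5_1 and 490.0 FPKM in 5_2, and at 54.4 to 68.3 FPKM in the other 4 treated livers. Vehicle livers had 77.0 to 137.2 FPKM, so the 4 lay below and the 2 far above every vehicle liver (log2 change 0.24, SE 0.54, adjusted p = 0.88). mt-Nd4l of complex I showed the same form in another pair of mice, with 108.0 FPKM in 5_2 and 112.4 FPKM in 5_3, and 18.2 to 27.5 FPKM in the other 4 treated livers, against 20.4 to 62.0 FPKM in vehicle livers (log2 change 0.073, SE 0.49, adjusted p = 0.963). mt-Atp8 and mt-Atp6 each encode a subunit of the membrane part of ATP synthase. mt-Atp8 rested on 2 to 15 reads a library in treated and 7 to 20 in vehicle livers, with 0.638 to 3.91 FPKM (median 1.70) in treated, against 1.80 to 5.83 FPKM (median 2.56) in vehicle livers (log2 change −0.50, SE 0.27, adjusted p = 0.456). mt-Atp6 was listed at 104.9 FPKM in treated mouse 4_5 and 98.5 FPKM in 5_3, and at 40.7 to 49.8 FPKM in the other 4 treated livers, against 44.6 to 120.01 FPKM in vehicle livers (log2 change −0.38, SE 0.30, adjusted p = 0.62). mt-Co3, the third core subunit of complex IV, averaged 60.9 ± 25.8 FPKM in treated and 80.1 ± 56.5 FPKM in vehicle livers (log2 change −0.28, SE 0.34, adjusted p = 0.756). mt-Nd3 of complex I averaged 50.2 ± 7.45 FPKM in treated and 61.1 ± 18.5 FPKM in vehicle livers (log2 change −0.25, SE 0.16, adjusted p = 0.548; SD, n = 6 each, limma). All of these groups overlapped. The 7 annotated copies had log2 changes of −0.63 to −0.37 in liver with adjusted p (limma) of 0.116 to 0.275.

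Both rRNAs overlapped between the groups in liver. mt-Rnr1 was listed at 258 to 494 FPKM (median 287) in treated and 249.8 to 431 FPKM (median 325) in vehicle livers (log2 change −0.043, SE 0.17, adjusted p = 0.938). mt-Rnr2 was listed at 203 to 431 FPKM (median 218) in treated and 237 to 418 FPKM (median 312) in vehicle livers (log2 change −0.28, SE 0.20, adjusted p = 0.569), with 4 treated livers below every vehicle liver. Among the 16 tested tRNA genes the median log2 change was −0.08, from −0.55 to 0.47, with 10 negative. mt-Tp had a log2 change of 0.06 (SE 0.18, adjusted p = 0.917), mt-Tc of −0.0048 (SE 0.28, adjusted p = 0.995), mt-Tn of 0.018 (SE 0.25, adjusted p = 0.983) and mt-Te (glutamate) of −0.13 (SE 0.19, adjusted p = 0.818) in limma.

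Among the cell markers in liver, only the neutrophil sums were apart between the groups. The 6 neutrophil genes, 5 of them above a mean of 1 FPKM, summed to 31.6 to 469.1 FPKM in treated and 12.2 to 18.5 FPKM in vehicle livers. These sums did not overlap, and 0.427% of single genes tested were higher in every treated than in every vehicle liver. The 6 Kupffer cell genes, all detected, summed to 308 to 1145 FPKM in treated and 288.7 to 335.7 FPKM in vehicle livers, with 4_5 the highest. The 5 red cell genes, all detected, summed to 503.3 to 2551 FPKM in treated and 374.9 to 1568 FPKM in vehicle livers, and the groups overlapped. The 6 hepatocyte genes summed to 22070 to 42860 FPKM in treated and 34620 to 41260 FPKM in vehicle livers, with the lowest sum in treated mouse 5_5. That liver also had the lowest mt-Nd1, mt-Nd2, mt-Nd4, mt-Cytb and mt-Co1 of the 12. Without it the 7 mRNAs outside the stretch had log2 changes of −0.43 to −0.16. In bulk tissue, fewer cells of a type and less RNA per cell cannot be told apart, and the part of these markers in the mitochondrial values was not tested.

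The muscles at 40 d had 5.10% to 9.40% of their reads on mitochondrial genes in treated mice (median 7.59%), against 7.15% to 10.5% in vehicle mice (median 8.56%), and the groups overlapped. The muscle comparison called no gene at all: limma with Benjamini-Hochberg adjustment called 0 of 11708 genes (0%) and 0 of 31 members, and voom likewise 0 and 0. At an unadjusted p under 0.05 there were 451 genes, 4 of them members (mt-Atp8, mt-Co2, mt-Tr and mt-Te), and voom also gave 4 members. All 4 were lower in treated muscle, where 1.97% of all genes met that rule. Log2 changes were negative for 24 of the 31 members with a median of −0.23, beside 51.4% negative and a median of −0.0036 over all genes.

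mt-Atp8 of ATP synthase had 3.04 to 8.00 FPKM (median 4.10) in treated muscles, against 8.64 to 26.3 FPKM (median 9.05) in vehicle muscles. It was the only member whose treated muscles all lay below every vehicle muscle, as did 0.171% of the genes tested. The log2 change was −1.28 (SE 0.28) at an unadjusted p of 0.000493 and an adjusted p of 0.778 (limma), and the values rest on 11 to 32 reads a library in treated and 30 to 83 in vehicle mice. mt-Co2 was listed at 144 to 309 FPKM (median 208) in treated muscles, against 238 to 673 FPKM (median 479) in vehicle muscles (log2 change −1.01, SE 0.28, adjusted p = 0.999). All 6 treated muscles lay below the vehicle median of mt-Co2, and 4 below every vehicle muscle. The neighbouring mt-Atp6 had 124 to 694 FPKM (median 205) in treated and 195 to 799.9 FPKM (median 335) in vehicle muscles (log2 change −0.64, SE 0.43, adjusted p = 0.999). mt-Co3 had 119 to 345 FPKM (median 201) in treated and 140.2 to 889.8 FPKM (median 291) in vehicle muscles (log2 change −0.57, SE 0.45, adjusted p = 0.999). For these 2 genes the groups overlapped, and the highest treated mt-Atp6 was in mouse 5_1. mt-Nd4l averaged 78.0 ± 46.0 FPKM in treated and 177 ± 197 FPKM in vehicle muscles (log2 change −0.81, SE 0.62, adjusted p = 0.999), and the highest value, 549.1 FPKM, was in vehicle mouse 2_5. mt-Nd3 averaged 90.5 ± 12.7 FPKM in treated and 79.9 ± 33.7 FPKM in vehicle muscles (log2 change 0.24, SE 0.19, adjusted p = 0.999; SD, n = 6 each, limma). Its 6 treated muscles lay above 5 of the 6 vehicle muscles, and vehicle mouse 6_1 was the highest of all 12. The copy of mt-Co2, Gm28661, averaged 143.0 ± 30.9 FPKM in treated and 211.9 ± 61.7 FPKM in vehicle muscles, and mt-Atp8 has no annotated copy to set beside it.

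**Figure D3:**
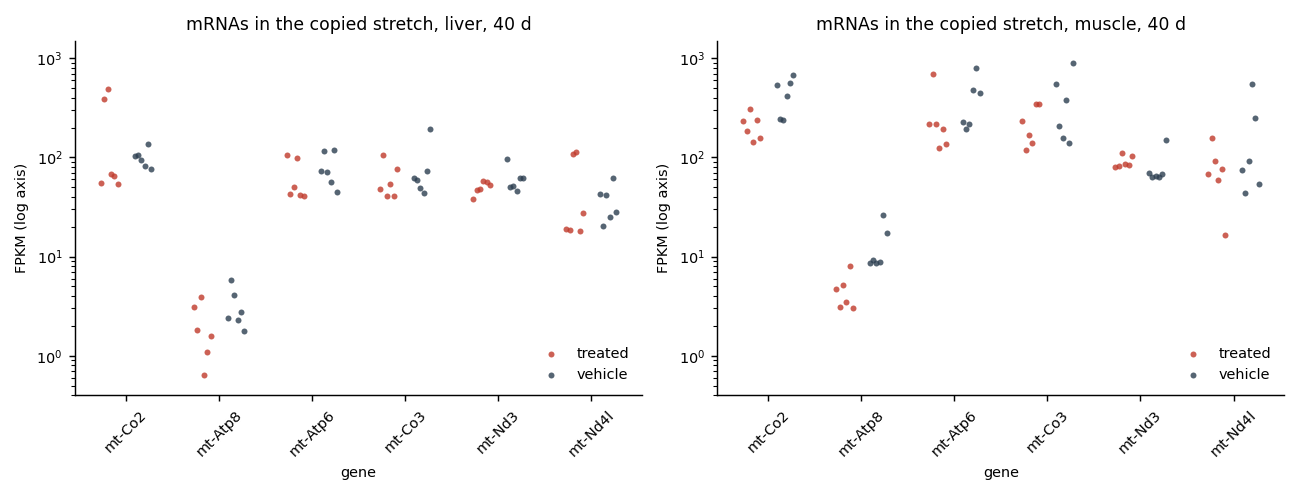
Level in FPKM (log axis) of the 6 mRNAs inside the copied stretch, for each of 6 treated (red, left) and 6 vehicle (dark, right) mice at 40 d. Treated livers split into high and low points for mt-Co2, mt-Nd4l and mt-Atp6, and in muscle the treated points of mt-Atp8 all lie under the lowest vehicle point of 8.64 FPKM.

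The abundant mRNAs of muscle overlapped between the groups. mt-Co1 was listed at 12421 to 27005 FPKM (median 18670.4) in treated and 17542 to 28560.4 FPKM (median 23792) in vehicle muscles (log2 change −0.30, SE 0.21, adjusted p = 0.999). mt-Cytb was listed at 7418 to 15003 FPKM (median 11204) in treated and 9923 to 15810.2 FPKM (median 13487) in vehicle muscles (log2 change −0.23, SE 0.19, adjusted p = 0.999). For mt-Co1, mt-Cytb, mt-Nd1, mt-Nd4 and mt-Nd6, 5 of 6 treated muscles lay below the vehicle median. The mRNAs of complex I outside the stretch differed by less than the spread between mice. mt-Nd1 averaged 10113 ± 2072 FPKM in treated and 11137 ± 2025 FPKM in vehicle muscles (log2 change −0.14, SE 0.19, adjusted p = 0.999). mt-Nd2 averaged 6609.8 ± 1571 FPKM in treated and 7254 ± 1329 FPKM in vehicle muscles (log2 change −0.15, SE 0.20, adjusted p = 0.999). mt-Nd4 averaged 4355 ± 880.2 FPKM in treated and 4976 ± 741 FPKM in vehicle muscles (log2 change −0.20, SE 0.17, adjusted p = 0.999). Treated mouse 5_5 was the lowest of the 12 muscles for all 7 of these abundant mRNAs. Without it the 7 log2 changes ranged from −0.18 to 0.01, with mt-Nd2 at −0.010 and mt-Nd1 at −0.059. mt-Nd5 averaged 2984 ± 769.8 FPKM in treated and 3291 ± 745 FPKM in vehicle muscles (log2 change −0.16, SE 0.22, adjusted p = 0.999), and without mouse 5_5 its log2 change was 0.01. mt-Nd6 averaged 3318 ± 445 FPKM in treated and 3670.3 ± 760.1 FPKM in vehicle muscles (log2 change −0.13, SE 0.17, adjusted p = 0.999; SD, n = 6 each, limma). Without mouse 5_5 the median of the 30 members then tested was −0.11.

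Both rRNAs had log2 changes above 0 in muscle, and neither passed the threshold. mt-Rnr1 had 329 to 869 FPKM (median 427) in treated and 323 to 521 FPKM (median 416) in vehicle muscles (log2 change 0.22, SE 0.23, adjusted p = 0.999). mt-Rnr2 had 323 to 659.6 FPKM (median 439.7) in treated and 366 to 568 FPKM (median 413) in vehicle muscles (log2 change 0.058, SE 0.19, adjusted p = 0.999). The highest value of mt-Rnr1, 869.0 FPKM, was again in treated mouse 5_5, so that the mouse lowest in the 7 abundant mRNAs was highest in this rRNA. Without it the log2 change of mt-Rnr1 was 0.047. Among the 16 tested tRNA genes the median log2 change was −0.27, from −0.79 to 0.63. mt-Te had 77.6 to 275 FPKM (median 215) in treated and 192 to 416 FPKM (median 311) in vehicle muscles (log2 change −0.69, SE 0.27, adjusted p = 0.999). mt-Tr, for arginine, had 3.84 to 12.4 FPKM (median 8.28) in treated and 7.46 to 20.9 FPKM (median 14.0) in vehicle muscles (log2 change −0.73, SE 0.27, adjusted p = 0.999), from 5 to 15 reads in treated and 9 to 24 in vehicle muscles, and it lies inside the copied stretch. All 6 treated muscles lay below the vehicle median for mt-Te and mt-Tr. mt-Tn had the highest change, 0.63 (SE 0.32, adjusted p = 0.999) in limma, while mt-Tp had −0.23 (SE 0.18, adjusted p = 0.999), mt-Tc −0.23 (SE 0.16, adjusted p = 0.999) and mt-Ty (tyrosine) −0.35 (SE 0.28, adjusted p = 0.999).

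**Figure D4:**
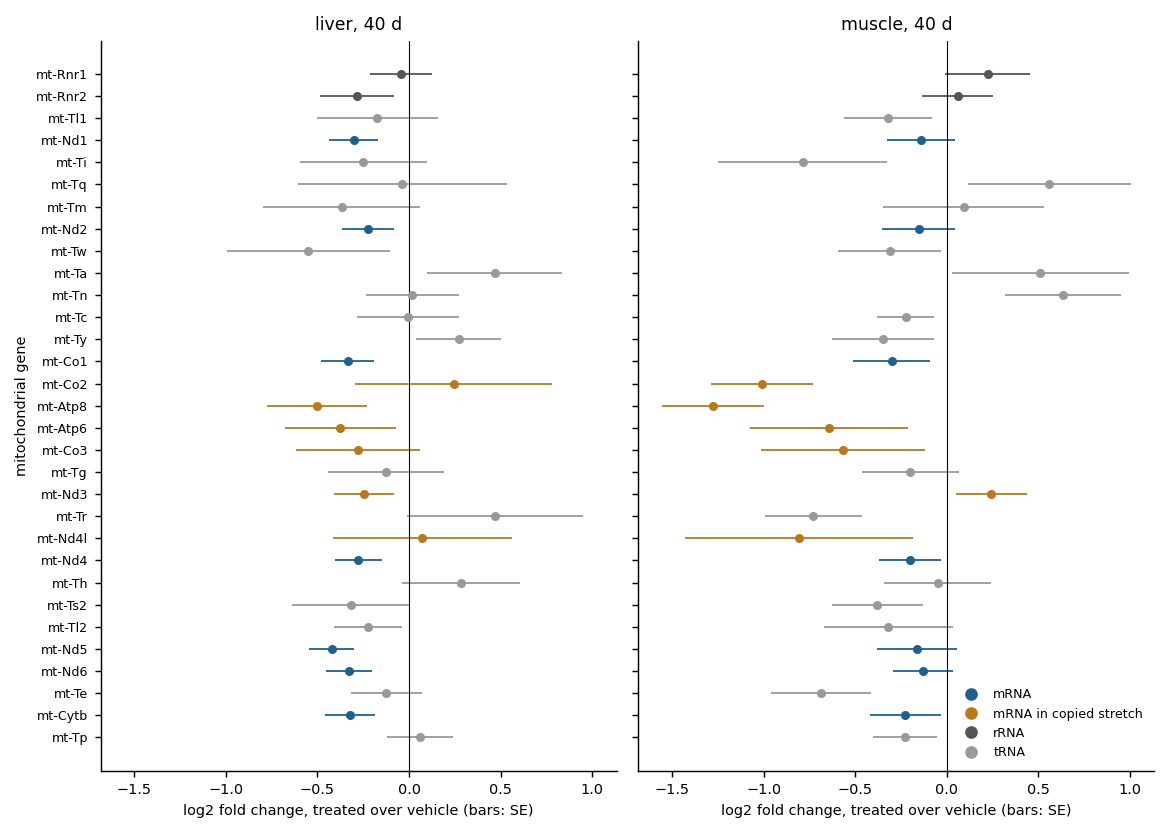
Log2 change of the 31 tested mitochondrial genes, treated over vehicle, in liver and muscle at 40 d, with SE from limma, in genome order from top to bottom. The 7 abundant mRNAs (blue) lie between −0.42 and −0.23 in liver and between −0.30 and −0.13 in muscle, and no gene of any class passed the adjusted threshold.

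Markers of other cells and of fibre type varied within both groups of muscles. The 8 slow or oxidative fibre genes, all detected, summed to 339.9 to 1883 FPKM in treated and 457.8 to 2453 FPKM in vehicle muscles, and the 6 adipocyte genes to 148.9 to 1274 FPKM in treated and 287.9 to 1152 FPKM in vehicle muscles. The highest mt-Atp8 values were in vehicle mice 3_2 (26.3 FPKM) and 6_1 (17.4 FPKM), which had slow fibre sums of 2453 and 1883 FPKM. The other 4 vehicle muscles had slow fibre sums of 457.8 to 822.6 FPKM with mt-Atp8 at 8.64 to 9.25 FPKM. Treated mouse 5_4, with the highest treated mt-Atp8 (8.00 FPKM), had a slow fibre sum of 1883 FPKM. Treated mice 4_5, 5_1 and 5_2 had slow fibre sums of 874.2 to 977.3 FPKM, above those of the 4 vehicle muscles, with lower mt-Atp8 at 3.07 to 5.17 FPKM. Treated mice 5_3 and 5_5 had slow fibre sums of 339.9 and 464.1 FPKM with mt-Atp8 at 3.503 and 3.038 FPKM. Treated mouse 5_5 had the highest adipocyte sum, 1274 FPKM. The 5 red cell genes, all detected, summed to 340.3 to 2348 FPKM in treated and 485.2 to 1015 FPKM in vehicle muscles, and 4 of the 6 treated muscles (5_2 to 5_5) lay above every vehicle muscle. The 6 neutrophil genes summed to 11.02 to 60.8 FPKM in treated and 5.59 to 13.04 FPKM in vehicle muscles. The part of these markers in the mitochondrial values was not tested.

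The effects in liver and muscle were compared in a limma fit of the 24 libraries, without pairing by mouse number. The difference, liver change minus muscle change, called 0 of 31 members, beside 1 of 9436 genes (0.0106%), and 1 member had an unadjusted p under 0.05. That member was mt-Tr at 1.20 on the log2 scale (SE 0.58, adjusted p = 0.955). For mt-Co1 the difference was −0.034 (SE 0.25, adjusted p = 0.997) and for mt-Nd5 −0.26 (SE 0.25, adjusted p = 0.997). mt-Co2 had the largest difference of the mRNAs, 1.25 (SE 0.64, adjusted p = 0.955), with the 2 high treated livers in it, and mt-Atp8 had 0.78 (SE 0.41, adjusted p = 0.971) (limma). A change in 1 tissue alone was therefore not shown for any member. Across the 7 abundant mRNAs the differences ranged from −0.26 to −0.03.

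At 24 h, with 1 library a group, the values compare those libraries and no test was made. In the treated muscle 10.97% of reads lay on mitochondrial genes, against 6.94% in the vehicle muscle. Of the 31 members with a mean of at least 1 FPKM, 21 were at least 1.5-fold higher in the treated muscle, beside 6.61% of all genes, and 0 at least 1.5-fold lower, beside 4.71%. The median log2 ratio was 0.72 over the members and −0.02 over all genes. mt-Co1 stood at 29504 FPKM in the treated and 19095 FPKM in the vehicle muscle, a log2 ratio of 0.63. mt-Cytb stood at 18045 FPKM in the treated and 11555 FPKM in the vehicle muscle, a log2 ratio of 0.64. The 7 abundant mRNAs lay within a narrow band of log2 ratios, 0.52 to 0.67, with mt-Nd1 at 0.52, mt-Nd2 at 0.57, mt-Nd5 at 0.59, mt-Nd6 at 0.57 and mt-Nd4 at 0.67. mt-Rnr1 had a log2 ratio of 0.41 and mt-Rnr2 of 0.81. The mRNAs of the copied stretch ranged more widely, with mt-Nd4l at 685 FPKM in the treated and 115 FPKM in the vehicle muscle (2.56) and mt-Co3 at 715 FPKM in the treated and 749 FPKM in the vehicle muscle (−0.067). Between them were mt-Atp8 at 1.70 from 87 reads in the treated and 26 in the vehicle muscle, mt-Co2 at 1.45, mt-Atp6 at 1.10 and mt-Nd3 at 0.81. mt-Tp had a log2 ratio of 0.84.

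The 2 muscles at 24 h also differed in their markers. The 8 slow or oxidative fibre genes summed to 259.6 FPKM in the treated and 56.8 FPKM in the vehicle muscle, and the 6 adipocyte genes to 2456 FPKM in the treated and 1265 FPKM in the vehicle muscle. The 6 skeletal fibre genes summed to 26130 FPKM in the treated and 42240 FPKM in the vehicle muscle. The 6 hepatocyte genes summed to 5.86 FPKM in the treated muscle, with Cps1 and Ttr at 0, and 122.9 FPKM in the vehicle muscle. Their part in the higher mitochondrial values was not tested.

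In liver at 24 h the shares of mitochondrial reads were 4.57% in the treated and 4.73% in the vehicle library. Of the 30 members with a mean of at least 1 FPKM, 0 were at least 1.5-fold higher (2.91% of all genes) and 8 at least 1.5-fold lower (2.68% of all genes), 6 of them tRNA genes and the others mt-Nd3 and mt-Nd4l. The median log2 ratio was −0.16 over the members and 0.04 over all genes. mt-Co1 stood at 12999 FPKM in the treated and 12151 FPKM in the vehicle liver and mt-Cytb at 8886 FPKM in the treated and 7566 FPKM in the vehicle liver, log2 ratios of 0.097 and 0.23. By reads, mt-Co1 had 282921 of 16.96 M in the treated and 304362 of 17.34 M in the vehicle liver. That is a lower share of reads in the treated liver, beside its higher FPKM. The other abundant mRNAs had log2 ratios of 0.067 (mt-Nd1), 0.21 (mt-Nd2), 0.20 (mt-Nd4) and −0.016 (mt-Nd5). mt-Nd6 stood at 2576 FPKM in the treated and 2576 FPKM in the vehicle liver. mt-Nd4l stood at 114 FPKM in the treated and 247 FPKM in the vehicle liver (−1.11) and mt-Nd3 at 56.5 FPKM in the treated and 99.8 FPKM in the vehicle liver (−0.81), both inside the copied stretch. mt-Co2 had a log2 ratio of 0.46, mt-Atp8 of −0.27, mt-Atp6 of −0.25, mt-Co3 of −0.11, mt-Rnr1 of −0.27, mt-Rnr2 of −0.23 and mt-Tp of 0.13. When libraries were scaled to their sum outside the mitochondrial chromosome, the median over all genes moved to −0.09 in liver and to 0.12 in muscle. Beside these, the median of the members was −0.31 in liver and 0.90 in muscle, and mt-Co1, mt-Nd1, mt-Nd6 and mt-Tp turned below 0 in liver and mt-Co3 above 0 in muscle.

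**Figure D5:**
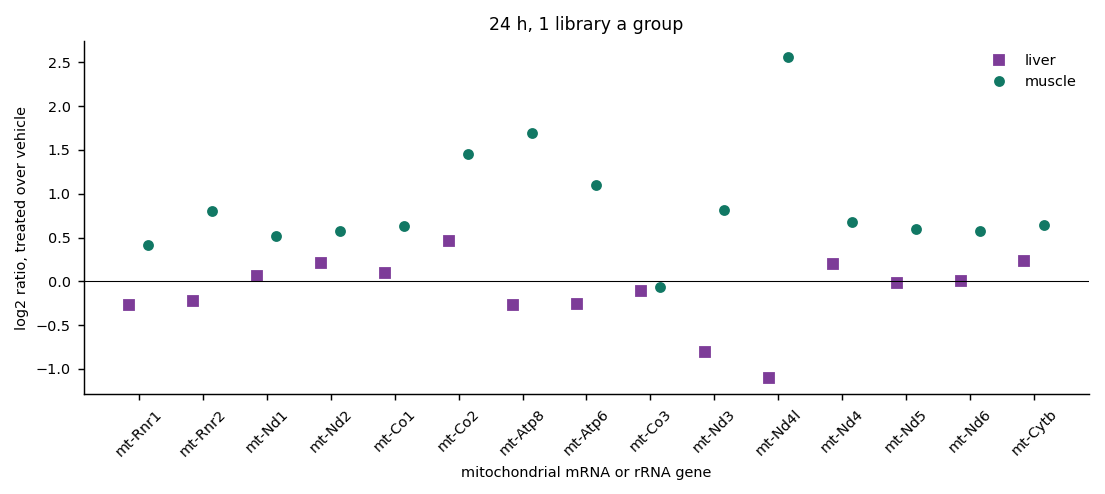
Log2 ratio, treated over vehicle, of the 13 mitochondrial mRNAs and 2 rRNAs at 24 h in liver (squares) and muscle (circles), with 1 library a group and so no error. In muscle 14 of the 15 genes lie above 0, all but mt-Co3, and in liver they lie on both sides of it.

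Nuclear genes that act on the mitochondrial genome showed no called change at 40 d. Of 9 tested genes of mitochondrial transcription, limma called 0 in liver and 0 in muscle, with median log2 changes of 0.03 and −0.0028. Tfam, which packages mitochondrial DNA and starts its transcription, had 11.4 ± 1.01 FPKM in treated and 11.98 ± 1.29 FPKM in vehicle livers (log2 change −0.069, SE 0.08, adjusted p = 0.746). In muscle Tfam had 9.39 ± 1.18 FPKM in treated and 9.44 ± 1.46 FPKM in vehicle mice (log2 change −0.0028, SE 0.10, adjusted p = 0.999). Polrmt had log2 changes of 0.029 (SE 0.07, adjusted p = 0.898) in liver and −0.11 (SE 0.08, adjusted p = 0.999) in muscle, Tfb2m of −0.097 (SE 0.11, adjusted p = 0.736) and −0.002 (SE 0.07, adjusted p = 0.999), and the elongation factor Tefm of −0.093 (SE 0.09, adjusted p = 0.694) and −0.03 (SE 0.13, adjusted p = 0.999). The smallest p of the list belonged to Mterf2, a transcription factor of the termination factor family, in liver at −0.25 (SE 0.11, adjusted p = 0.352), and in muscle to Polrmt and to Mterf3 at 0.08 (SE 0.07, adjusted p = 0.999) (limma).

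Of 13 tested genes of mitochondrial DNA replication and nucleotide supply, 0 were called in either tissue, with median log2 changes of 0.05 in liver and 0.03 in muscle. The helicase Twnk had log2 changes of 0.099 (SE 0.09, adjusted p = 0.672) in liver and 0.11 (SE 0.08, adjusted p = 0.999) in muscle, the DNA polymerase subunit Polg of 0.012 (SE 0.07, adjusted p = 0.962) and −0.022 (SE 0.06, adjusted p = 0.999), and the single-strand binding protein Ssbp1 of −0.019 (SE 0.06, adjusted p = 0.915) and 0.026 (SE 0.10, adjusted p = 0.999) (limma). The smallest p in liver belonged to the pyrimidine nucleotide carrier Slc25a33, with a log2 change of 0.39 (SE 0.14, adjusted p = 0.271), and the DNA ligase Lig3, −0.14 (SE 0.06, adjusted p = 0.312). In muscle it belonged to the nuclease Mgme1, with a log2 change of 0.21 (SE 0.07, adjusted p = 0.999), and the carrier Slc25a36, 0.29 (SE 0.15, adjusted p = 0.999). The processing list had 19 tested genes, 0 called in either tissue and medians of −0.02 in both. Its tRNA 3′ end nuclease Elac2 had log2 changes of −0.14 (SE 0.06, adjusted p = 0.384) in liver and −0.069 (SE 0.07, adjusted p = 0.999) in muscle, and the methyltransferase Trmt5 of −0.18 (SE 0.09, adjusted p = 0.441) in liver. In muscle the smallest p belonged to Trit1, with a log2 change of −0.14 (SE 0.07, adjusted p = 0.999), and Mrm1, 0.11 (SE 0.07, adjusted p = 0.999), both RNA-modifying enzymes.

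The list of RNA stability and decay had 17 tested genes in liver and 18 in muscle and 0 called, with medians of −0.11 and −0.05. Lrpprc, which holds mitochondrial mRNAs stable, had 11.8 ± 1.34 FPKM in treated and 13.7 ± 0.505 FPKM in vehicle livers (log2 change −0.21, SE 0.07, adjusted p = 0.238, unadjusted p = 0.0124, limma). In muscle it had 10.8 ± 1.47 FPKM in treated and 12.3 ± 1.72 FPKM in vehicle mice (log2 change −0.18, SE 0.10, adjusted p = 0.999). Its partner Slirp was below the filter and not tested, at 0.690 ± 0.136 FPKM in treated and 0.345 ± 0.117 FPKM in vehicle livers. The groups overlapped, with treated livers from 0.494 FPKM and vehicle livers up to 0.506 FPKM. In muscle at 40 d Slirp had 0.475 ± 0.138 FPKM in treated and 0.281 ± 0.143 FPKM in vehicle mice. At 24 h it had 0.0915 FPKM in the treated and 0.199 FPKM in the vehicle liver, and 0.343 and 0.225 FPKM in the muscles. The poly(A) polymerase Mtpap had log2 changes of 0.036 (SE 0.06, adjusted p = 0.823) in liver and −0.098 (SE 0.08, adjusted p = 0.999) in muscle, and the exonuclease Pnpt1 of −0.10 (SE 0.08, adjusted p = 0.597) and −0.11 (SE 0.12, adjusted p = 0.999). The endonuclease Lactb2 had a log2 change of −0.44 (SE 0.17, adjusted p = 0.276) in liver, and Ybey, an RNase, 0.23 (SE 0.07, adjusted p = 0.999) in muscle. Of the aminoacyl-tRNA synthetase list, which charges mitochondrial tRNAs, 18 of 21 tested members had negative log2 changes in liver (median −0.05) and 16 of 22 in muscle (median −0.04), with 0 called. Iars2, for isoleucine, had the smallest p in both tissues, with log2 changes of −0.26 (SE 0.07, adjusted p = 0.175) in liver and −0.10 (SE 0.07, adjusted p = 0.999) in muscle, followed by the amidotransferase subunit Gatb, −0.23 (SE 0.09, adjusted p = 0.281) and −0.14 (SE 0.10, adjusted p = 0.999) (limma). The list of mitochondrial ribosomal proteins was taken by symbol alone (Mrpl or Mrps), so its members need not all be part of the ribosome. Among its 75 tested genes in liver and 76 in muscle 0 were called, with medians of 0.02 and −0.02. The smallest p belonged to Mrps36, with a log2 change of −0.32 (SE 0.09, adjusted p = 0.175), and Mrpl10, −0.17 (SE 0.07, adjusted p = 0.327), in liver and to Mrps27, −0.24 (SE 0.14, adjusted p = 0.999), and Mrpl9, −0.18 (SE 0.12, adjusted p = 0.999), in muscle.

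Nuclear subunits of the complexes that the mitochondrial mRNAs serve were also without a call. In liver negative log2 changes were found for 27 of 35 complex I genes (median −0.05), 7 of 9 of complex III (−0.10), 11 of 12 of complex IV (−0.10) and 13 of 17 of complex V (−0.05). In muscle they were found for 27 of 35 (−0.09), 6 of 9 (−0.13), 8 of 15 (−0.04) and 11 of 17 (−0.06). Complex II, which holds no mitochondrially encoded subunit, had 4 of 4 negative in both tissues, with medians of −0.14 and −0.09. In liver the smallest p belonged to Ndufs1, with a log2 change of −0.25 (SE 0.09, adjusted p = 0.251), and Ndufa10, −0.18 (SE 0.10, adjusted p = 0.453), in complex I, Uqcrc2, −0.25 (SE 0.09, adjusted p = 0.274), and Cyc1, −0.14 (SE 0.14, adjusted p = 0.693), in complex III and Cox7a1, −0.37 (SE 0.28, adjusted p = 0.586), and Cox6b1, −0.12 (SE 0.11, adjusted p = 0.645), in complex IV. In complex V they were Atp5a1, −0.37 (SE 0.13, adjusted p = 0.257), and Atp5b, −0.24 (SE 0.12, adjusted p = 0.389), and in complex II Sdha, −0.31 (SE 0.13, adjusted p = 0.335), and Sdhb, −0.22 (SE 0.14, adjusted p = 0.534) (limma). Atp5a1 was listed low, with means of 6.9 FPKM in treated and 9.1 FPKM in vehicle livers, beside 299.5 and 351.2 FPKM for Atp5b. Cox7a1 was low as well, with means of 4.44 FPKM in treated and 5.17 FPKM in vehicle livers, beside 284 and 308.2 FPKM for Cox6b1. It ranged from 2.37 to 12.2 FPKM in treated and from 3.84 to 6.12 FPKM in vehicle livers. In muscle Ndufb2 of complex I had a log2 change of −0.32 (SE 0.11, adjusted p = 0.999) and Ndufs1 −0.21 (SE 0.14, adjusted p = 0.999), and Cyc1 and Uqcrc2 of complex III had log2 changes of −0.26 (SE 0.15, adjusted p = 0.999) and −0.24 (SE 0.15, adjusted p = 0.999) (limma). Ndufb2 averaged 1.97 FPKM in treated and 2.71 FPKM in vehicle muscles, beside 37.3 and 42.9 FPKM for Ndufs1. Cox4i1 and Cox7c of complex IV had log2 changes of −0.17 (SE 0.20, adjusted p = 0.999) and 0.15 (SE 0.20, adjusted p = 0.999), Atp5b and Atp5a1 of complex V −0.18 (SE 0.14, adjusted p = 0.999) and −0.17 (SE 0.16, adjusted p = 0.999), and Sdhb and Sdha of complex II −0.28 (SE 0.17, adjusted p = 0.999) and −0.13 (SE 0.14, adjusted p = 0.999) in limma. At 24 h in muscle the nuclear lists of complexes I, III, IV and V had median log2 ratios of 0.05, 0.14, 0.14 and 0.12, beside 0.64 for the 13 mitochondrial mRNAs. In liver at 24 h the same lists had medians of 0.20, 0.34, 0.21 and 0.19, beside 5.1e-05 for the 13 mRNAs, the ratio of mt-Nd6. These medians of the 13 pool in the 6 mRNAs inside the copied stretch, whose levels are uncertain. In liver the 7 mRNAs outside the stretch had a median of 0.097 and the 6 inside it −0.26. In muscle the medians were 0.59 for the 7 and 1.28 for the 6.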

How the data were processed

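The authors deposited FPKM values in 3 tables (liver 40 d, muscle 40 d and 24 h), per the file headers, and all 28 columns were used. Per the labels' protocols, RNA was extracted with Trizol and the NEBNext Ultra RNA kit gave the libraries. That kit does not mark strand. The builds named are GRCm38 and mm10, per the submitters' processing notes. Aligner, counter, strand use and the handling of reads that fit several places were not given in the sources used here. All 37 mitochondrial genes lie where GENCODE M21 places them. Pseudogene identity was computed from its transcripts with Biopython 1.88.

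A gene was tested where 6 of the 12 libraries or more reached 1 FPKM, on log2(FPKM + 1) with limma (R 4.3.3, limma 3.58.1), moderated with a trend, two-sided, 6 against 6, and adjusted over all genes tested (Benjamini-Hochberg, threshold 0.05). Genes passing in both tissues entered a fit of all 24 libraries for the difference between tissues. The fits within a tissue were checked on simulated reads, and the fit of the difference on simulated log2 values. FPKM values came out as whole reads in 100% of values within 0.01, which gave the reads for voom. At 24 h, 1.5-fold changes were counted where the mean reached 1 FPKM, with no test. The groups were taken from the labels, and p-values measure the spread between these libraries. Named are the 13 mRNAs and 2 rRNAs, tRNA genes by level or p, a fixed set of nuclear genes and the 2 smallest p of each nuclear list. The members, lists and tests were chosen with earlier results of these data known. Tables and figures used Python 3.11.15, NumPy 2.4.6, pandas 2.3.3 and matplotlib 3.10.9.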

Additional observations from a re-analysis of the deposited data

Results flagged for a closer look

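A value was listed here where the highest or lowest of 6 libraries of a group stood apart from its nearest neighbour by more of the group's range than Dixon's critical value at 95% allows. Of 116 groups looked at, 9 met this, and chance alone gives about 1 in 20. In treated livers the lowest mt-Nd1 (4441 FPKM, next 5447) and mt-Nd2 (3951 FPKM, next 5012) were both in mouse 5_5, and the highest mt-Tm (13.9 FPKM, next 6.15) in mouse 5_2. In vehicle livers mouse 2_1 had the highest mt-Tw (57.2 FPKM, next 25.8), mt-Ty (68.5 FPKM, next 38.3) and mt-Nd3 (96.2 FPKM, next 62.2), and mouse 6_1 the highest mt-Co3 (193.6 FPKM, next 72.9). In treated muscles mouse 5_1 had the highest mt-Atp6 (694.3 FPKM, next 219.5), and in vehicle muscles mouse 6_1 the highest mt-Nd3 (148.6 FPKM, next 70.2). Of the 9 values, 4 belong to mRNAs inside the stretch copied on chromosome 1.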

How the results depend on the processing

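No mitochondrial gene was called at 40 d under any pseudocount, filter, scaling, voom or left-out library tried. Counts over the whole table moved more. In liver 28 genes were called, 0 without the low-value filter, and 0 to 83 with 1 library left out. In muscle 0 were called, 2 under either other scaling, and 0 to 1 with 1 library left out. For the difference between tissues 1 gene was called, 0 with scaling outside the mitochondrial chromosome, and 0 to 2 with 1 mouse left out.

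Same-numbered livers and muscles share only a number in the labels. Their deviations correlated over 9436 genes at −0.078 to 0.447, above 0.1 for 7 of 12 numbers, and 7 livers correlated best with their own number. With the mouse number as replicate block, 3 genes were called for the difference between tissues and 0 mitochondrial genes. In that limma fit 3 members had an unadjusted p under 0.05, beside 1 without the block. The lowest adjusted p of a member was 0.414 with the block and 0.955 without it.

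With 1 library left out, log2 changes that crossed 0 in liver ranged from −0.17 to 0.46 for mt-Co2, −0.46 to 0.014 for mt-Co3, −0.25 to 0.26 for mt-Nd4l, −0.17 to 0.037 for mt-Rnr1, −0.15 to 0.16 for mt-Tc, −0.26 to 0.032 for mt-Te, −0.14 to 0.18 for mt-Tn and −0.048 to 0.18 for mt-Tp. In muscle they ranged from −0.25 to 0.011 for mt-Nd5 and −0.052 to 0.15 for mt-Rnr2, and for the difference between tissues from −0.12 to 0.045 for mt-Co1. These ranges were followed in each tissue for 21 of the 28 named members, the mRNAs, the rRNAs and mt-Tp, mt-Tc, mt-Tn, mt-Te, mt-Ty and mt-Tr. Changes that kept their sign but moved by over 1.5 times with 1 library left out were 6 of these 21 in liver, 14 of the 21 in muscle and 1 of the 5 followed in the difference. Scaling outside the mitochondrial chromosome turned mt-Tn to −0.026 in liver at 40 d. At 24 h it turned mt-Co1 to −0.056, mt-Nd1 to −0.086, mt-Nd6 to −0.15 and mt-Tp to −0.023 in liver, and mt-Co3 to 0.11 in muscle. Without the filter 1 more mitochondrial gene passed 1.5-fold at 24 h, higher in liver and lower in muscle (1 each). The cause of these moves was not tested. Short and low genes rest on few reads, which limits mt-Atp8 and the tRNAs.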

Other observations

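Part of mt-Nd4 is copied on chromosome 1, which leaves the size of its ratios uncertain. The ratio of mt-Nd5 to mt-Nd4 was 0.598 to 0.824 in treated and 0.717 to 0.856 in vehicle livers. In muscle it was 0.655 to 0.758 in 5 treated mice and 0.501 in treated mouse 5_5, against 0.654 to 0.766 in 5 vehicle mice and 0.465 in vehicle mouse 6_1. The ratio of mt-Nd5 to mt-Nd6 singled out the same muscles, at 0.567 in 5_5 and 0.571 in 6_1, with 0.927 to 0.973 in the other treated and 0.933 to 1.004 in the other vehicle mice. Since the kit does not mark strand, this ratio need not compare RNAs of different strands. The summed rRNAs came to 0.988% to 3.88% of the summed mRNA FPKM in treated and 0.918% to 1.47% in vehicle muscles, with 3.88% in mouse 5_5 and 2.37% in mouse 5_3. In liver they came to at most 2.76% in treated mice, in mouse 5_2, and at most 2.00% in vehicle mice. The copy Gm29216 of mt-Co1 was listed at 93.2 to 1437 FPKM in treated and 101.9 to 1607 FPKM in vehicle muscles, and at 25.2 to 38.6 FPKM in treated and 31.0 to 52.1 FPKM in vehicle livers. None of these values was tested.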
